A study of Mus musculus and Sus scrofa with 30 samples.

Results

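The comparison set 3 libraries of 3T3-L1 cells given rosiglitazone against 3 libraries given dicoumarol together with magnolol, called the combination here. The 6 libraries were taken by their treatment labels from a series of 30. 3T3-L1 is an established mouse embryonic fibroblast line that turns into fat cells when induced with hormones. Every 3T3-L1 group, the vehicle included, received insulin at 0.75 µg/mL, dexamethasone at 75 nM and the phosphodiesterase inhibitor IBMX at 37.5 µM in medium with 10% serum, and RNA was taken on day 5. Rosiglitazone is a synthetic agonist of the nuclear receptor PPARγ. Dicoumarol is an anticoagulant known to block the quinone reductase NQO1, and magnolol is a compound of magnolia bark. The other 3T3-L1 groups were DMSO vehicle, dicoumarol alone and magnolol alone, with 3 libraries each. They give the vehicle levels and share the estimate of the spread. Porcine dedifferentiated fat (DFAT) cells, from subcutaneous fat, carried the same 5 treatments and are used for 1 comparison at the end. No label used here states a dose for dicoumarol, magnolol or rosiglitazone, so the treatments are compared as they were applied and not at matched doses. All 3T3-L1 libraries come from 1 cell line, and nothing in the labels says that replicates were separate cultures. The p-values then measure the spread between these libraries, which may be technical.

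PPARγ is the transcription factor without which fat cells do not form. It binds DNA with the partner receptor RXR at paired copies of the half-site AGGTCA, and an agonist in its pocket recruits coactivators to genes for lipid uptake, storage and release. In fat cells its agonists are also known to raise genes of fatty acid oxidation and mitochondria, and to lower inflammatory genes. The question put to these libraries was what the agonist does to the transcriptome that the pair of compounds does not.

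Values are normalized counts, the authors' gene counts divided by library size factors. Fold changes are differences of log2(normalized count + 1), rosiglitazone minus combination, and understate the change of low genes. A gene was called at a limma adjusted p under 0.05, and SE is the standard error after limma's moderation. Of 15723 genes tested, 2879 were called (18.3%): 1499 higher with rosiglitazone (9.53%) and 1380 lower (8.78%). At least 2-fold changes were found in 133 of the genes called higher and 148 of those called lower. The median over all genes was 0.00, with a median SE of 0.15. With the replicate number as a block, 5234 genes were called (33.3%), including all 2879. Of these, 2533 were higher and 2701 lower. Counts of list members given below are to be read against the counts over all genes in the same fit. Against vehicle, the same fit called 821 genes for the combination (5.22%) and 6312 for rosiglitazone (40.1%). Those vehicle values share libraries with the main comparison and are given beside it only as levels.

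The rosiglitazone libraries were widely spread, with replicates 1 and 2 at the ends. On the first principal component of the 15 libraries, which held 44.6% of the variance, rosiglitazone replicates 1 to 3 lay at −71.0, −34.8 and −49.9. The combination libraries lay between −10.9 and 1.5. Without rosiglitazone replicate 1, limma called 1078 genes (591 higher, 487 lower). Without this library but with the replicate block 3664 were called (1859 higher, 1805 lower). The count was 4017 without rosiglitazone replicate 2 and 2145 without rosiglitazone replicate 3. It was 1887, 1754 and 1648 without combination replicates 1, 2 and 3. Where a gene's call between the 2 treatments is said below to be lost without a library, that fit had no block, unless it is named. With the block and all libraries every such gene was called. Mitochondrially encoded genes took 14.3% of the counts in rosiglitazone replicate 1, 7.67% in replicate 2 and 11.6% in replicate 3, against 6.14% to 7.69% in the combination. The estimated depth of the 6 libraries was 22.8 to 27.8 M reads. The part of depth and of the mitochondrial share in the results was not tested. In bulk RNA a larger share of fat cells and more RNA of a gene in each fat cell cannot be told apart.

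Several genes of mature fat cells were among the largest rises. Fabp4 encodes the fatty acid binding protein of fat cells and lies on chromosome 3 at 10269148 to 10273636, minus strand, in the deposited coordinates. It stood at 38660, 24082 and 25156 normalized counts in combination replicates 1 to 3 and at 223878, 119470 and 161477 with rosiglitazone. The 2 groups did not overlap, which the rule for naming the largest rises required, and replicate 1 was the highest of each. The log2 fold change was 2.51 (SE 0.32, n = 3 per group, limma adjusted p 0.000508). The combination itself lay 3.17 above vehicle (limma adjusted p 7.6e-05) and rosiglitazone 5.68 above it.

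Cidec, which lets lipid droplets fuse and grow, measured 10752, 4614 and 8449 with the combination and 40463, 26297 and 37315 with rosiglitazone (log2 fold change 2.19, SE 0.53, limma adjusted p 0.0118). Adipoq encodes adiponectin, a hormone secreted by fat cells. It measured 4965, 1982 and 4264 with the combination and 20741, 7971 and 12776 with rosiglitazone (1.88, SE 0.53, limma adjusted p 0.0229). Slc2a4, the insulin-responsive glucose transporter GLUT4, was low, at 73.0, 30.2 and 59.6 against 309, 152 and 204 (2.04, SE 0.51, limma adjusted p 0.0134). Each of these genes kept its 3 rosiglitazone libraries above its 3 combination libraries, which the naming rule required of Cidec and Slc2a4. Replicate 2 was the lowest in both groups for all of them. The combination itself lay above vehicle by 4.58 for Cidec, 3.18 for Adipoq and 2.66 for Slc2a4 (limma adjusted p 0.000316, 0.00229 and 0.00563). In the fit without the replicate block, the calls between the 2 treatments rested on the whole set of libraries. Without rosiglitazone replicate 1 the limma adjusted p was 0.0540 for Cidec, 0.117 for Adipoq and 0.0746 for Slc2a4. Without combination replicate 2 it was 0.0544, 0.0943 and 0.0618, and without rosiglitazone replicate 3 that of Adipoq was 0.0521. For Fabp4 it was at most 0.0102 under all 17 alternatives. With the block and all libraries the limma adjusted p was 3.2e-05 for Cidec, 1.1e-06 for Adipoq and 0.00015 for Slc2a4. All 3 also stayed called with the block when rosiglitazone replicate 1 was left out.

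**Figure D1:**
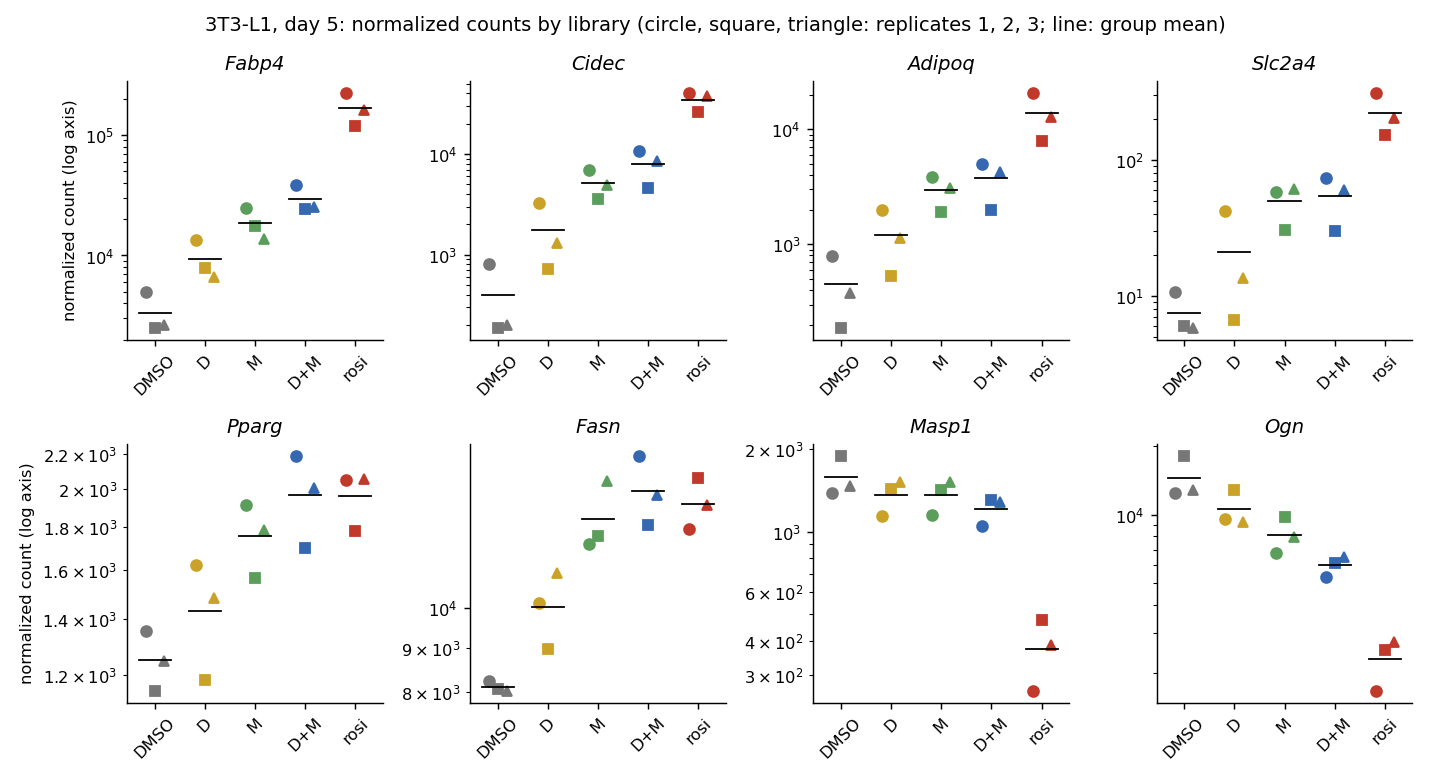
Normalized counts of 8 genes in the 15 libraries of 3T3-L1 cells, on log axes, by treatment (DMSO vehicle; D, dicoumarol; M, magnolol; D+M, the combination; rosi, rosiglitazone), with 1 mark per replicate and a line at the group mean. Fabp4, Cidec, Adipoq and Slc2a4 are highest with rosiglitazone, Masp1 and Ogn are lowest with it, and Pparg and Fasn overlap between the combination and rosiglitazone.

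The other largest rises were varied. Ubd, a ubiquitin-like modifier, rose from 38.5, 22.7 and 63.6 to 206, 183 and 296 (2.52, SE 0.40, limma adjusted p 0.0013). Olr1, the receptor for oxidized lipoprotein and a gene that PPARγ agonists are known to raise in fat cells, rose from 121, 71.8 and 72.5 to 489, 397 and 415 (2.32, SE 0.33, limma adjusted p 0.000781). G0s2, an inhibitor of the triglyceride lipase ATGL, rose by 2.06 (SE 0.55, limma adjusted p 0.0184) and Mrap, the accessory protein of melanocortin receptors, by 2.10 (SE 0.64, limma adjusted p 0.0335). Smim36, a gene for a small membrane protein, rose by 2.21 (SE 0.36, limma adjusted p 0.00154). Arxes1 rose by 2.17 (SE 0.44, limma adjusted p 0.00447), but it has a near-identical copy, Arxes2, so its value is uncertain. In all of these genes the 2 groups were separate, which the rule for naming them required. Mrap and G0s2 lost their calls without rosiglitazone replicate 1 (limma adjusted p 0.144 and 0.0885), rosiglitazone replicate 3 (0.0676 and 0.0507) or combination replicate 2 (0.104 and 0.0761). Mrap also lost it without combination replicate 3 (0.0885). With the block and all libraries the limma adjusted p was 5.2e-05 for Mrap and 1.5e-05 for G0s2.

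Aqp7 encodes the channel through which glycerol leaves fat cells. It measured 79.1, 28.4 and 95.4 with the combination and 278, 183 and 415 with rosiglitazone (2.19, SE 0.50, limma adjusted p 0.00868). Cd36, a fatty acid transporter at the cell surface, measured 2795, 1162 and 3718 against 6005, 5555 and 10806 (1.63, SE 0.50, limma adjusted p 0.0332). Both had separate groups, which the naming rule required of Aqp7, with replicate 3 the highest in each group. Cd36 lost its call without combination replicate 1 (limma adjusted p 0.0556) or 2 (0.139), or without rosiglitazone replicate 1 (0.0751) or 3 (0.111). With the block and all libraries its limma adjusted p was 6.3e-05. Both genes are known PPARγ targets, and their RefSeq promoter windows on GRCm38.p6 held a match to the receptor's response element. The motif was searched as 2 copies of AGGTCA separated by 1 base, on both strands, with at most 2 mismatches over the 12 fixed bases. The sequences below are shown because they carry these matches. Each gives 250 bases before an annotated gene start, on the gene's strand, 5′ to 3′, with the match in capitals. Rab43, described among the falls below, is shown beside them because its window holds a match too.
Aqp7, chr4:41047963-41048212, minus strand: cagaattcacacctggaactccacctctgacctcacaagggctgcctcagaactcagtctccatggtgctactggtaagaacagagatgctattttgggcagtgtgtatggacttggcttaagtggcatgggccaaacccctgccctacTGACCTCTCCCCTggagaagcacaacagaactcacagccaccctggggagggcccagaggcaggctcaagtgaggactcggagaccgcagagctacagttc
Cd36, chr5:17835897-17836146, minus strand: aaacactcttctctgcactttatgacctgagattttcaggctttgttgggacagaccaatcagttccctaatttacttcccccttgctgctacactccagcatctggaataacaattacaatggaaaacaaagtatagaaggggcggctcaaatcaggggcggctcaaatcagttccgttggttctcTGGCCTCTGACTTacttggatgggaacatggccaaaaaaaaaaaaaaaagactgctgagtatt
Rab43, chr6:87809758-87810007, minus strand: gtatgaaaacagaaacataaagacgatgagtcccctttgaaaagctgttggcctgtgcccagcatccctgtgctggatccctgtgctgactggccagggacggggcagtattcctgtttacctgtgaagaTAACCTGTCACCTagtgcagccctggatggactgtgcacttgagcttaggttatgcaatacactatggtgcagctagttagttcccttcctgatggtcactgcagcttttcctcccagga

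The capitals lie at −101 to −89 of the Aqp7 start, −63 to −51 of the Cd36 start and −120 to −108 of the Rab43 start, and all 3 read as the motif on the opposite strand. A second annotated start of Aqp7 has another match, at −56 to −44. Windows reaching from 250 bases before to 50 after a start held one in 32 of 1033 genes called higher (3.10%), 26 of 1001 genes called lower (2.60%) and 330 of 10136 tested genes with a window (3.26%). Over all 26742 genes with a window the share was 4.42%. Of the 10 largest rises 5 had a window, and Aqp7 alone of these held a match. A match is a description of the letters and not a binding site, and PPARγ is known to bind mostly outside such windows.

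The list of 16 adipocyte markers, all of them above the minimum, had 11 members called higher, 0 lower, and a median of 1.45 against 0.00 for all genes. The markers that were not called were Pparg, Dgat2, Cfd, Retn and Gpd1. Gpd1, which makes the glycerol backbone of triglyceride, measured 4334, 1691 and 2786 against 7731, 6148 and 10996 (1.56, SE 0.58, limma adjusted p 0.0721; 0.00407 with the replicate block). Retn, for resistin, differed by 1.36 (limma adjusted p 0.0764; 0.000262 with the block). In each library the median marker lay 3.89 to 4.39 above the vehicle mean with rosiglitazone and 1.81 to 3.10 above it with the combination. The count was 5 without rosiglitazone replicate 1 and 14 when the block was added to that fit.

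The receptor itself was not called. Pparg stood at 2192, 1700 and 2006 with the combination and at 2052, 1780 and 2057 with rosiglitazone. The 2 groups overlapped, and the log2 difference was 0.00 (SE 0.13, 95% interval −0.26 to 0.27, limma adjusted p 0.99). Both treatments lay 0.65 above vehicle. Cebpa, the factor that PPARγ and its partner genes keep active in mature fat cells, was higher: 1399, 777 and 1631 against 3494, 2101 and 3248 (1.25, SE 0.39, limma adjusted p 0.0369). Its call was lost without combination replicate 1 (0.0620) or 2 (0.142) or rosiglitazone replicate 1 (0.143) or 3 (0.0914). With the block and all libraries the limma adjusted p of Cebpa was 1.3e-06. Among 28 adipogenic transcription factors and cofactors 2 were called higher, Cebpa and Zfp423 (0.51), and 2 lower, among them Klf4 (−0.81). Their median was 0.02, and with the block 6 were called in each direction. Klf4, an early regulator of the differentiation cascade, fell from 762, 1046 and 851 to 441, 598 and 474 (SE 0.16, limma adjusted p 0.00431). For Klf4 the combination differed from vehicle by −0.86 (limma adjusted p 0.00464).

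Genes that bring fatty acids into the cell moved with the markers. Of 17 tested, 11 were higher, 1 was lower and the median was 0.92 (11 and 3 with the block). Lpl, the lipase that frees fatty acids from lipoproteins, measured 117594, 79244 and 75668 against 263807, 154183 and 166200 (1.09, SE 0.23, limma adjusted p 0.00615). Angptl4, a secreted inhibitor of that lipase and a known PPAR target, measured 4262, 3782 and 2983 against 11133, 7872 and 8412 (1.31, SE 0.15, limma adjusted p 0.000455). Acsl1, which activates fatty acids with coenzyme A, rose by 1.53, and Scarb1, the lipoprotein receptor SR-BI, by 1.15. Vldlr was the member that fell, from 8724, 8282 and 8207 to 3955, 6383 and 5093 (−0.74, SE 0.14, limma adjusted p 0.00296). The count of 11 was 7 without rosiglitazone replicate 1, and 11 when the block was added to that fit, with 1 lower in each.

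Lipid droplet genes were split. Of 15 tested, 7 were higher and 1 lower, with a median of 0.40 (9 and 2 with the replicate block). Plin1, the coat protein of fat cell droplets, measured 2627, 1421 and 2252 against 5395, 4050 and 5702 (1.30, SE 0.38, limma adjusted p 0.0283), while Plin3, the coat protein of most other cells, fell from 3382, 3655 and 3523 to 2382, 2876 and 2791 (−0.40, SE 0.09, limma adjusted p 0.00739). Plin2 (0.70) and Fitm2 (0.64), a factor for droplet formation, also rose. Plin1 lost its call without combination replicate 2 (0.108) or 3 (0.0580) or rosiglitazone replicate 1 (0.0990) or 3 (0.0767). With the block and all libraries its limma adjusted p was 6.0e-05. Without rosiglitazone replicate 1, 2 droplet genes were called higher and 1 lower, and with the block added to that fit 8 and 1. For Plin1 the combination lay 3.45 above vehicle (limma adjusted p 0.0002).

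Of 19 genes of triglyceride synthesis and glycerol supply, 7 were higher and 0 lower, with a median of 0.30 (10 higher with the block). Without rosiglitazone replicate 1 the list had 4 higher, and 10 when the block was added to that fit, with 0 lower in each. Agpat2, the acyltransferase of fat cells, rose by 1.60 (SE 0.24, limma adjusted p 0.000934), Gpat3 by 1.32 and Dgat1, which adds the last fatty acid, by 0.80. Gk, glycerol kinase, rose by 0.92. Pck1, the key enzyme of glyceroneogenesis, was low and variable at 20.3, 10.4 and 25.8 against 81.8, 39.2 and 114 (1.96, SE 0.62, limma adjusted p 0.0392). Pck1 lost its call without any 1 of combination replicates 1 to 3 (limma adjusted p 0.0754, 0.132 and 0.0570) or rosiglitazone replicates 1 and 3 (0.132 and 0.126). Of 16 lipolysis genes 3 were higher and 0 lower, against 9.53% and 8.78% of all genes, with a median of 0.70. With the block 7 were higher and 1 lower. Pnpla2, the triglyceride lipase ATGL, measured 9680, 6021 and 7303 against 20451, 14531 and 17661 (1.21, SE 0.20, limma adjusted p 0.00151). Lipe, the hormone-sensitive lipase, rose by 0.99 (SE 0.28, limma adjusted p 0.0252), a call lost without combination replicate 2 (0.107) or rosiglitazone replicate 1 (0.0904) or 3 (0.0708). With the block and all libraries its limma adjusted p was 1.3e-05.

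The synthesis of new fatty acids had few calls in the fit without the block. Fasn, fatty acid synthase, stood at 15017, 12486 and 13534 with the combination and 12331, 14143 and 13158 with rosiglitazone (−0.05, SE 0.10, 95% interval −0.26 to 0.16, limma adjusted p 0.762). Scd1, the stearoyl-CoA desaturase, stood at 25881, 14667 and 9532 against 16835, 17240 and 11022 (−0.06, SE 0.39, interval −0.89 to 0.77). Both genes overlapped between the groups, and the interval of Scd1 is wide in this fit. With the replicate block the SE of Scd1 was 0.13 (limma adjusted p 0.747). Both were above vehicle in both groups: Fasn by 0.75 with the combination and 0.70 with rosiglitazone, and Scd1 by 1.55 and 1.49. Of the 21 genes of this list 3 were higher and 0 lower, against 9.53% and 8.78% of all genes, with a median of 0.11. The 3 were Me1 (0.53, SE 0.14, limma adjusted p 0.019), which supplies NADPH, the citrate carrier Slc25a1 (0.51) and Tkt (0.45). No gene of the list was called without rosiglitazone replicate 1, and 7 were higher and 0 lower when the block was added to that fit. With the block and all libraries 5 were higher and 2 lower. Cholesterol synthesis genes had 4 of 24 higher and 0 lower (median 0.22), led by Msmo1 (0.66, SE 0.11, limma adjusted p 0.00202); the block gave 12.

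Of 29 genes of insulin signalling and glycolysis 8 were higher and 2 lower, with a median of 0.08 and with 9 and 4 called with the block. Besides Slc2a4, the rises included Pfkfb3 (1.48), which makes an activator of glycolysis, Irs2 (0.84), an insulin receptor substrate, and Aldoa (0.87). Hexokinases went apart: Hk2 rose by 0.49 and Hk1 changed by −0.40 (limma adjusted p 0.0491), a call lost when any 1 library but rosiglitazone replicate 2 was left out (limma adjusted p 0.0506 to 0.255). The list had 5 higher and 0 lower without rosiglitazone replicate 1, and 10 and 2 when the block was added to that fit. The 15 adipokine genes had 5 higher and 3 lower (7 and 4 with the block, 4 and 1 without rosiglitazone replicate 1). Without that library but with the block the counts were 7 and 4. Lcn2, the inflammatory lipocalin, fell from 2416, 3194 and 2252 to 1179, 1369 and 1230 (−1.04, SE 0.14, limma adjusted p 0.000676). Nampt, which makes a precursor of NAD, differed by −0.39 (limma adjusted p 0.0214), with means of 11434 and 8776 against 8396 for vehicle.

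The subunits of the respiratory chain and ATP synthase pass electrons from NADH and succinate to oxygen and make ATP, and most are encoded in the nucleus. Of 76 tested nuclear genes 71 were higher with rosiglitazone and 0 lower, against 9.53% of all genes. Their median was 0.66, and 75 of 76 lay above 0. By complex, the calls were 34 of 37 for complex I (median 0.65), 3 of 4 for complex II (0.43), 9 of 9 for complex III (0.74), 10 of 10 for complex IV (0.72) and 14 of 15 for ATP synthase (0.62). Cytochrome c, Cycs, was the member with the largest rise, from 3165, 2160 and 3073 to 8641, 5499 and 8139 (1.4, SE 0.19, limma adjusted p 0.000676). It has many processed pseudogenes, which counting could have split reads with. Among the 5 members not called were Atp5g2 (0.00), Sdha (0.14), Ndufb11 (0.42) and Ndufa1 (0.47).

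In each rosiglitazone library the median subunit lay above vehicle, by 1.17, 0.76 and 0.88 in replicates 1 to 3, while the combination libraries lay at 0.30, 0.27 and 0.29 and the vehicle libraries at −0.23 to 0.12. Against vehicle, 15 of the 76 were called for the combination (median 0.28) and 75 for rosiglitazone (median 0.92). The count of 71 was 49 without rosiglitazone replicate 1, with a median of 0.52, and 71 when the block was added to that fit. It was 68 after quantile normalization and 70 after rescaling by the median ratio.

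The 13 protein-coding genes of the mitochondrial genome encode the remaining subunits. With rosiglitazone 9 were called higher and 0 lower, and all 13 lay above 0, with a median of 0.70. The member with the largest rise was mt-Nd3, at 12376, 10820 and 12812 with the combination and 31173, 17458 and 24906 with rosiglitazone (0.99, SE 0.18, limma adjusted p 0.00239). Against vehicle the combination differed by 0.05 for this gene (95% interval −0.32 to 0.43). The 4 genes not called were mt-Nd4 (0.61), mt-Co1 (0.58), mt-Nd6 (0.48) and mt-Nd5 (0.45). This group depended on the normalization and on single libraries. Quantile normalization left 3 called and a median of 0.36, fitting the 6 libraries alone left 2, and leaving out rosiglitazone replicate 1 left 3, while the block called all 13. Without that library but with the block 10 were called, all higher. The mitochondrial share of the counts overlapped between the groups, since rosiglitazone replicate 2 lay at 7.67% and combination replicate 3 at 7.69%.

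**Figure D2:**
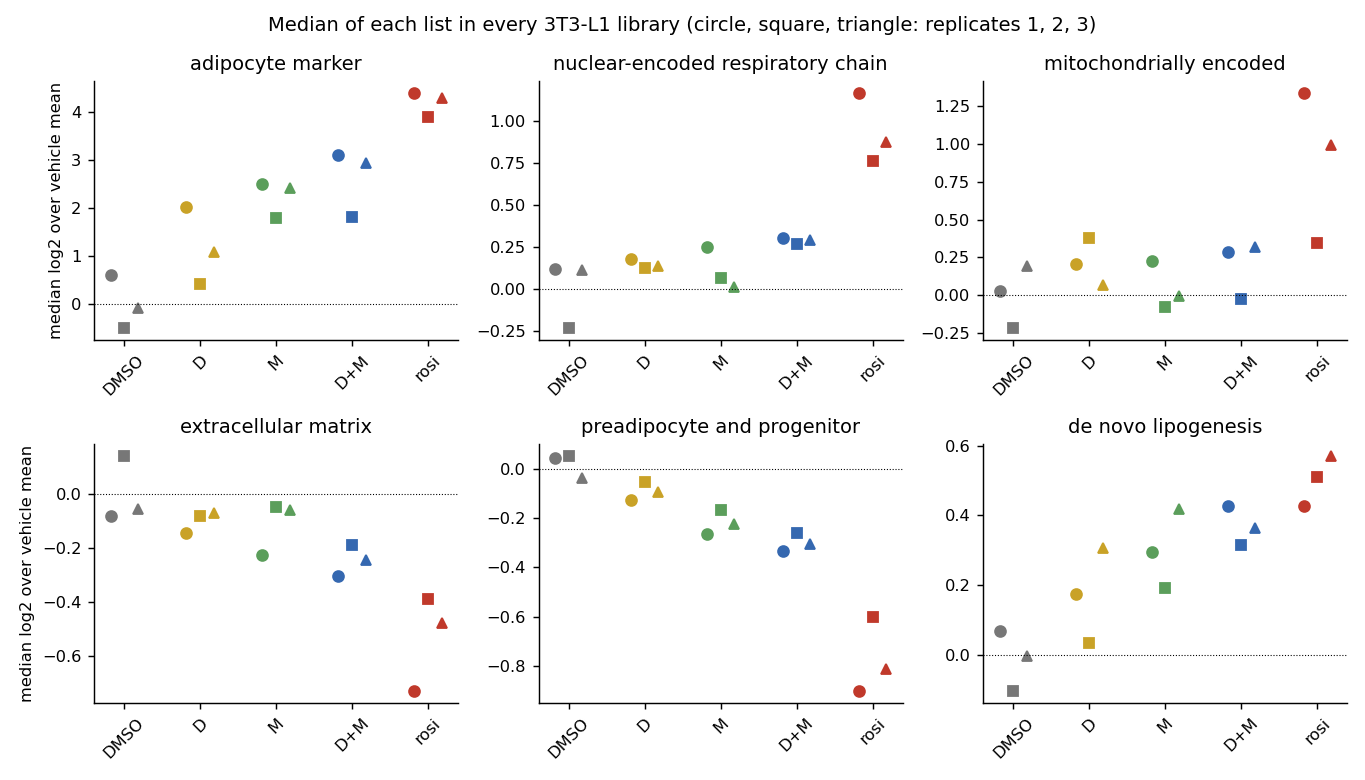
Median log2 level of 6 gene lists in each of the 15 libraries of 3T3-L1 cells, relative to the vehicle mean, by treatment (D, dicoumarol; M, magnolol; D+M, the combination; rosi, rosiglitazone; marks are replicates). Respiratory chain genes lie at 0.76 to 1.17 with rosiglitazone and at 0.27 to 0.30 with the combination, the mitochondrially encoded genes spread from 0.34 to 1.34 with rosiglitazone, and for lipogenesis the combination reaches up to 0.43, where the rosiglitazone libraries begin.

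The pathways that feed the chain rose in part. Of 27 mitochondrial fatty acid oxidation genes 18 were higher and 0 lower (median 0.40; 20 and 2 with the block), and of 30 genes of the citric acid cycle and pyruvate entry 17 were higher and 1 lower (median 0.38; 22 and 3 with the block). Hadhb (0.88) and Acadm (0.85), enzymes of the oxidation spiral, were among the rises. Cpt1a, the liver-type carnitine transferase that gates entry into the mitochondrion, differed by −0.26 (limma adjusted p 0.236; 0.0096 with the block). Its muscle-type paralog Cpt1b had the list's largest value, 2.04 (SE 0.67, limma adjusted p 0.0448), on scattered levels of 2.75, 14.1 and 50.8 against 83.6, 48.9 and 47.0. The 2 groups overlapped, and the difference was 1.07 without combination replicate 1 (limma adjusted p 0.191). Leaving out any 1 other library except combination replicate 3 also ended the call (0.0519 to 0.173). Idh3a, a catalytic subunit of isocitrate dehydrogenase, rose from 4232, 2760 and 3721 to 9815, 7153 and 9768 (1.33, SE 0.16, limma adjusted p 0.000508). The pyruvate dehydrogenase phosphatase Pdp1 fell by 0.94 (SE 0.22, limma adjusted p 0.00916). Pdk4, the kinase that shuts the same enzyme off and a known PPAR target, differed by −0.45 (SE 0.23, limma adjusted p 0.175; 0.000291 with the block), on 1309, 1766 and 1736 against 899, 1347 and 1300.

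Of 26 genes of branched-chain amino acid breakdown 11 were higher and 0 lower (median 0.28; 14 and 1 with the block). Bckdhb, a subunit of the committing dehydrogenase, rose from 1003, 770 and 1041 to 1750, 1555 and 1968 (0.91, SE 0.13, limma adjusted p 0.000877), and Bcat2, the mitochondrial transaminase, by 0.84. Peroxisome genes had 12 of 35 higher and 0 lower (median 0.16; 16 and 2 with the block). Acaa1b, a peroxisomal thiolase and PPAR target with a close paralog, Acaa1a, rose by 1.74 (SE 0.28, limma adjusted p 0.00149) and Pex16, a factor of peroxisome assembly, by 0.99. These counts were 13 for oxidation, 13 for the cycle, 7 for the amino acids and 7 for peroxisomes without rosiglitazone replicate 1. They were 21, 22, 14 and 15 when the block was added to that fit, with 2, 2, 1 and 1 lower.

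Thermogenic genes rose in part. Ucp1 and Cidea, the defining genes of brown fat on this list, stayed under the minimum, with highest values of 1.71 and 1.95. Of the 15 tested members 7 were higher and 1 lower, with a median of 0.39 (9 and 1 with the block, 4 and 1 without rosiglitazone replicate 1). Without that library but with the block the counts were 8 and 1. The fall was in Slc29a1, a nucleoside transporter (−0.41, SE 0.08, limma adjusted p 0.005). The largest rise was Elovl3, a fatty acid elongase that brown and PPARγ-activated fat cells express, from 10.1, 0.945 and 2.98 to 32.5, 28.3 and 59.3 (3.14, SE 0.77, limma adjusted p 0.0118). Its call was lost without combination replicate 2 (0.0551). Ppargc1b, a coactivator of mitochondrial genes, rose by 1.43 (SE 0.26, limma adjusted p 0.00287), and Esrra, its receptor partner, by 0.52. Ppargc1a, the inducible coactivator, differed by 0.10 and was not called.

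**Figure D3:**
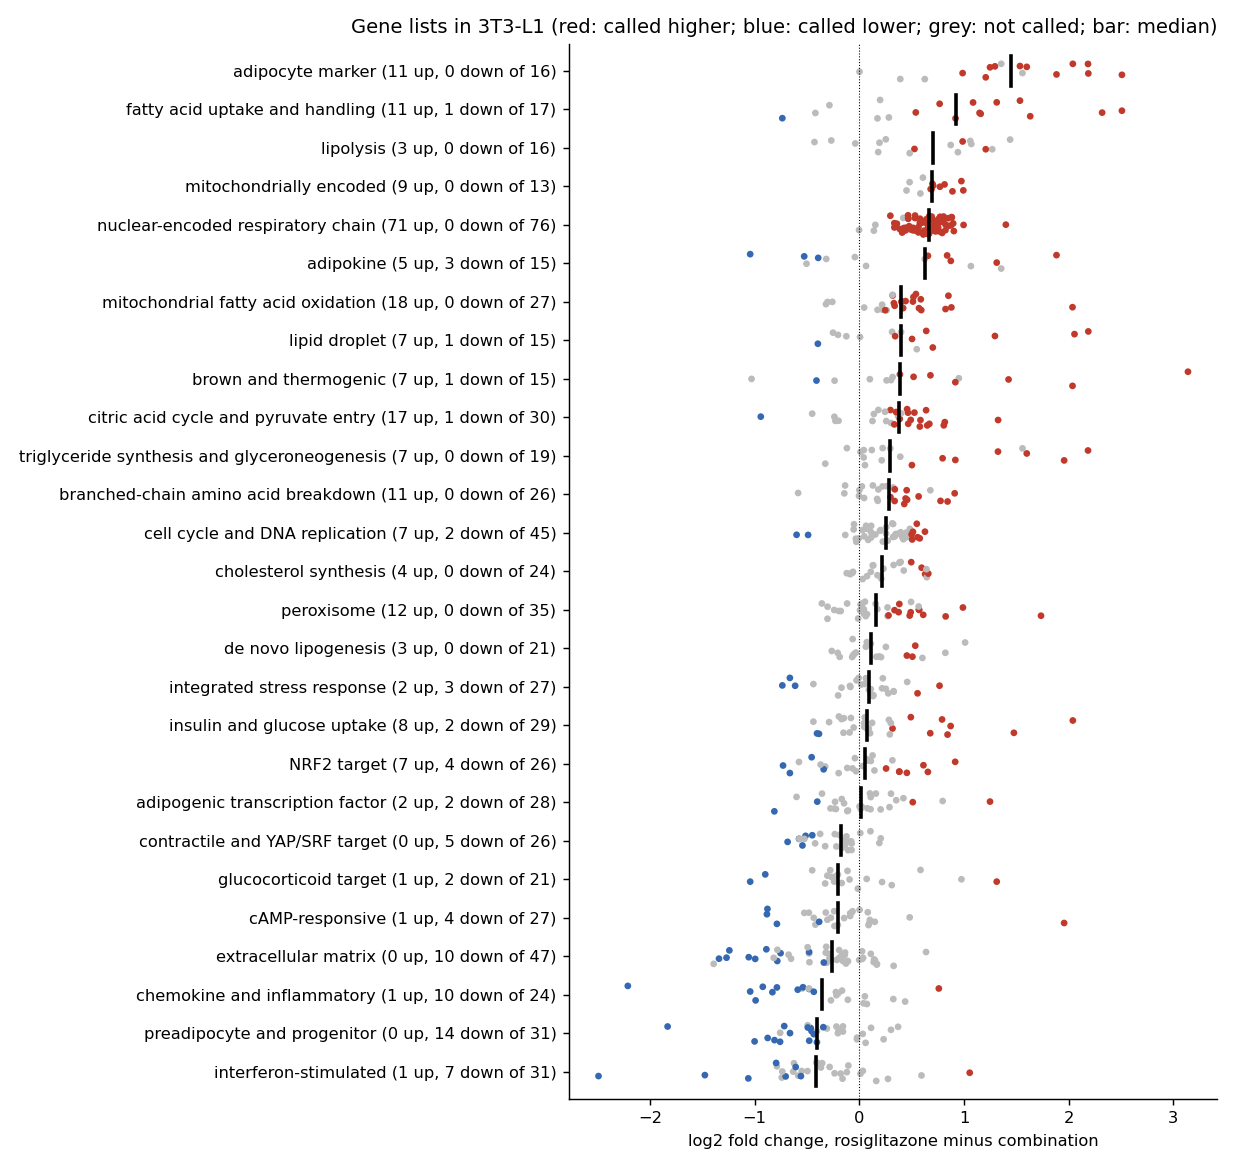
Log2 fold change, rosiglitazone minus combination, of each tested member of the gene lists with at least 10 tested members; each point is a gene, coloured by its call, and the bar is the list's median. The respiratory chain genes stand together to the right, with 71 of 76 called higher, and the progenitor, chemokine, matrix and interferon lists have their medians to the left, at −0.26 to −0.41.

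The largest falls included secreted proteins and receptors. Masp1, a protease of the lectin complement pathway, lies on chromosome 16 at 23268167 to 23339565 in the deposited coordinates. It measured 1050, 1306 and 1278 with the combination and 262, 475 and 384 with rosiglitazone (−1.73, SE 0.19, limma adjusted p 0.000377). The combination differed from vehicle by −0.38 (95% interval −0.78 to 0.02; limma adjusted p 0.333, and 0.0279 with the block). Igf1, insulin-like growth factor 1, measured 588, 1021 and 839 against 173, 385 and 263 (−1.61, SE 0.32, limma adjusted p 0.00415), and the combination differed from vehicle by −0.31 (limma adjusted p 0.715, and 0.0279 with the block). Ogn, a small leucine-rich proteoglycan, fell from 5311, 6081 and 6489 to 1664, 2514 and 2738 (−1.40, SE 0.19, limma adjusted p 0.000676). The combination lay 1.26 below vehicle. The groups were separate in these genes, which the rule for naming them required. Rosiglitazone replicate 1 was the lowest library for all of them.

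Prkg1, a cGMP-dependent kinase, fell by 1.52 (SE 0.18, limma adjusted p 0.000455), Plxna4, a semaphorin receptor, by 1.51 (SE 0.26, limma adjusted p 0.00204), and Npy1r, a neuropeptide Y receptor, by 1.48 (SE 0.24, limma adjusted p 0.00129). Gas7, a protein of the cytoskeleton, fell by 1.36 (SE 0.27, limma adjusted p 0.00442). Rab43, a small GTPase of membrane traffic, fell by 1.47 (SE 0.29, limma adjusted p 0.00442), from 484, 550 and 460 to 98.4, 347 and 168. Abca9, a lipid transporter, fell by 1.37 (SE 0.36, limma adjusted p 0.0176). Without rosiglitazone replicate 1 Abca9 was at −0.77 (limma adjusted p 0.0527). It was also not called without combination replicate 3 (0.0642).

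Among 47 matrix genes 10 were lower and 0 higher, against 8.78% of all genes, with a median of −0.26. The 10 were Col12a1, Fn1, Lox, Mmp3, Timp2, Fbn1, Vcan, Mmp2, Mmp14 and Col5a1. Fibronectin (Fn1) fell by 1.27 (SE 0.20, limma adjusted p 0.00129) and the collagen crosslinker Lox by 1.24. Col12a1, a fibril-associated collagen, fell from 4592, 5189 and 6222 to 1274, 3144 and 2281 (−1.34, SE 0.25, limma adjusted p 0.00311). Mmp3, stromelysin, fell from 92.3, 100.2 and 98.3 to 36.7, 71.8 and 37.1 (−1.06, SE 0.26, limma adjusted p 0.0121). Without rosiglitazone replicate 1 its limma adjusted p was 0.0681. For Mmp3 the combination differed from vehicle by −1.85 (limma adjusted p 0.000954). The chief fibrillar collagen gene was not called: Col1a1 stood at 66994, 77232 and 82107 against 56020, 69252 and 73416 (−0.19, SE 0.14, 95% interval −0.50 to 0.11, limma adjusted p 0.362), and the groups overlapped. The count was 15 after quantile normalization, 8 without rosiglitazone replicate 1, and 21 lower and 2 higher with the block. Without that library but with the block it was 14 lower and 2 higher. Of 26 contractile and YAP or SRF target genes 5 were lower and 0 higher (median −0.18; 8 lower with the block and 2 without rosiglitazone replicate 1), led by filamin A, Flna (−0.68, SE 0.15, limma adjusted p 0.00776). Without that library but with the block 9 were lower and 1 higher.

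Markers of preadipocytes and stromal progenitors fell in 14 of 31 members and rose in 0, with a median of −0.40. With the replicate block 17 were lower and 2 higher, Hes1 and Ebf2. Fmo2, a flavin monooxygenase, had the largest fall, from 97.3, 132 and 58.6 to 30.4, 44.6 and 11.1 (−1.83, SE 0.45, limma adjusted p 0.0126; 0.0568 without combination replicate 2 and 0.0529 without rosiglitazone replicate 3). Sfrp2, a Wnt inhibitor, fell by 1.00 (SE 0.15, limma adjusted p 0.000996), Wnt5a by 0.76, and the growth factor receptors Pdgfra and Pdgfrb by 0.46 each. Dlk1, which holds preadipocytes back from differentiating, measured 13972, 18400 and 12794 against 9664, 12694 and 9920 (−0.48, SE 0.15, limma adjusted p 0.0339). Its call was lost without combination replicate 1 or 2 or rosiglitazone replicate 1 or 3 (limma adjusted p 0.0557 to 0.146). For Dlk1 the combination differed from vehicle by −0.66 (limma adjusted p 0.0148). When rosiglitazone replicate 1 was left out, 7 members of the list were lower and 1 was higher, and in a fit of the 6 libraries alone 9 were lower. Without that library but with the block 15 were lower and 1 higher. In every rosiglitazone library the list's median lay below the vehicle mean, by −0.60 to −0.90, and in the combination libraries by −0.26 to −0.33.

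Of 24 chemokine and inflammatory genes 10 were lower and 1 higher (median −0.35; 12 and 1 with the block). Cxcl13, a B cell chemokine, fell from 100.4, 145 and 203 to 24.1, 25 and 45.7 (−2.21, SE 0.37, limma adjusted p 0.00162). For Cxcl13 the combination differed from vehicle by −1.32 (limma adjusted p 0.0487). Csf1, the macrophage growth factor, fell by 0.99, and Saa3, an acute phase protein, by 0.92. Ccl2, the monocyte chemokine, was not called: 91.3, 156 and 178 against 117, 88.1 and 153 (−0.22, SE 0.22, 95% interval −0.68 to 0.24, limma adjusted p 0.489), with both groups below the vehicle libraries at 348, 414 and 373. Hp, haptoglobin, was the member that rose (0.76, limma adjusted p 0.0477), a call lost when any 1 library but rosiglitazone replicate 2 was left out (0.0613 to 0.201). Without rosiglitazone replicate 1 the list had 5 lower and 0 higher, and in a fit of the 6 libraries alone 5 and 1. Without that library but with the block 12 were lower and 1 higher. Of 31 interferon-stimulated genes 7 were lower and 1 higher (median −0.41; 9 and 2 with the block, 5 and 0 without rosiglitazone replicate 1). Without that library but with the block the counts were 8 and 2. Ddx60, an RNA helicase, was very low, at 13.2, 21.7 and 15.9 against 1.05, 1.09 and 6.17 (−2.49, SE 0.43, limma adjusted p 0.00215). Parp14 fell by 1.06 (SE 0.14, limma adjusted p 0.00066). Usp18, which removes the modifier ISG15 from proteins, went the other way by 1.05 (limma adjusted p 0.0319), a call lost without combination replicate 2 or 3 or rosiglitazone replicate 1 or 3 (0.0766 to 0.147).

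Markers of other cell types were few. Of 12 macrophage markers 4 passed the minimum, and the whole list summed to 192 to 231 normalized counts with rosiglitazone, 295 to 350 with the combination and 436 to 456 with vehicle. The defining genes Adgre1 and Ptprc were not listed, and Itgam reached at most 1.95. Lyz2 (−1.04, SE 0.20, limma adjusted p 0.00332; a close copy, Lyz1, makes it uncertain) and Cd14 (−0.91) were lower, and Csf1r and Cd68 were not called. Of 12 endothelial markers 1 passed, Egfl7 (1.04, SE 0.22, limma adjusted p 0.00591). Of 14 skeletal muscle markers 2 passed, with none called, and of 13 chondrocyte markers 6, with Sox5 (−0.64, limma adjusted p 0.0413) and Sox9 lower. Sox5 was not called without combination replicate 2 or 3 or rosiglitazone replicate 1 or 3 (limma adjusted p 0.101 to 0.159). Of 12 osteoblast markers 5 passed, and 3 of these were lower and 1 higher (1 and 0 without rosiglitazone replicate 1). Without that library but with the block the counts were 3 and 1. Alpl, tissue alkaline phosphatase, stood at 69.0, 43.5 and 54.6 with the combination, 18.9, 6.53 and 14.8 with rosiglitazone and 33.0, 24.8 and 16.3 with vehicle, a fall of 2.06 (SE 0.37, limma adjusted p 0.0025). Spp1, osteopontin, went the other way, at 281, 360 and 434 against 500, 460 and 608 with vehicle at 787, 744 and 1015 (0.56, SE 0.17, limma adjusted p 0.0332). Its call was lost without combination replicate 1 or 2 or rosiglitazone replicate 1 or 3 (0.0702 to 0.146). The part of other cell types in the results was not tested.

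The medians of the lists for stress and hormone signals were 0.05 for NRF2, 0.09 for the integrated stress response, −0.20 for cAMP and −0.20 for glucocorticoid. Over all genes 9.53% were called higher and 8.78% lower. Nqo1, the enzyme that dicoumarol inhibits, stood at 1323, 1621 and 1138 against 1282, 1558 and 1120 (−0.04, SE 0.18, 95% interval −0.42 to 0.34, limma adjusted p 0.892). Of 26 NRF2 targets 7 were higher and 4 lower (median 0.05; 8 and 7 with the block; 2 and 1 without rosiglitazone replicate 1). Without that library but with the block the counts were 6 and 6. Taldo1, of the pentose phosphate pathway, rose by 0.92 (SE 0.14, limma adjusted p 0.00122) and the exporter Abcc4 changed by −0.73 (SE 0.12, limma adjusted p 0.00184). Of 27 integrated stress response genes 2 were higher and 3 lower (6 and 4 with the block), and Nupr1 led the rises (0.77, SE 0.16, limma adjusted p 0.00557). Of 27 cAMP-responsive genes 1 was higher and 4 lower (1 and 9 with the block), with Fosl2 at −0.88 (SE 0.20, limma adjusted p 0.00816). Of 21 glucocorticoid targets 1 was higher and 2 lower (3 and 7 with the block): Angptl4 against Lcn2 and Errfi1 (−0.90). Of 45 cell cycle genes 7 were higher and 2 lower (median 0.26; 17 and 2 with the block). Tk1, thymidine kinase, was at 302, 329 and 357 against 504, 506 and 514 (0.63, SE 0.17, limma adjusted p 0.0182; 0.0589 without rosiglitazone replicate 1 and 0.0651 without combination replicate 1). Cdk6 was at −0.60 (SE 0.15, limma adjusted p 0.015; 0.0842 without rosiglitazone replicate 1 and 0.0716 without combination replicate 3). Without rosiglitazone replicate 1 the counts were 4 higher and 1 lower for the cell cycle and 1 and 1 for the stress response. When the block was added to that fit they were 22 and 2, and 6 and 3.

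The same 2 treatments were compared in porcine DFAT cells, induced with dexamethasone at 0.5 µM and IBMX at 12.5 µM in 2% serum, also in 3 libraries per group. There limma called 2523 of 14819 genes (17.0%). For the 9368 genes joined by symbol, a fit over all 30 libraries tested the difference between the systems and called 1515 (16.2%), 627 with a higher value in 3T3-L1 and 888 with a lower one. The count was 864 without 3T3-L1 rosiglitazone replicate 1 and 2331 without replicate 2 of that group. The fit over both systems had no replicate block, and it was not run with one. The normalizations were separate, so levels are not compared. The systems also differ in species, medium and serum, which cannot be told apart here.

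The respiratory chain differed between the systems. Over 54 joined genes the median was 0.66 in 3T3-L1, with 50 higher, and 0.06 in DFAT, with 1 higher and 2 lower, and the difference was called for 38, all with the higher value in 3T3-L1. Fatty acid oxidation (median 0.41 against 0.09 over 24 genes, difference called for 14 above and 1 below) and branched-chain amino acid breakdown (0.28 against 0.00 over 26 genes, 9 above and 0 below) had smaller gaps. The cAMP-responsive genes went the other way: over 25 genes the median was −0.20 in 3T3-L1 and 0.59 in DFAT, where 14 were higher and 0 lower, with the difference called for 7, all below. Cholesterol synthesis had 13 of 22 genes lower in DFAT and 0 higher, against 3 higher in 3T3-L1, and the difference was called for 8.

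Among the panel genes called higher in DFAT too were Angptl4 (1.37) and Pck1 (2.10). Their differences from 3T3-L1 were −0.06 (SE 0.23, limma adjusted p 0.883) and −0.14 (SE 0.84, limma adjusted p 0.921). The second interval is wide. Cidec (1.17), Adipoq (0.86) and Cd36 (0.34) were also called higher in DFAT. Their differences from 3T3-L1, at 1.021, 1.025 and 1.288, were not called (SE 0.60, 0.62 and 0.55, limma adjusted p 0.247, 0.264 and 0.108). These SEs are large and come from a fit without the block, so equal effects in the 2 systems cannot be read from them. Lpl was called higher in DFAT as well (0.28). Fabp4 rose by 1.12 in DFAT, less than in 3T3-L1 by 1.39 (SE 0.36, limma adjusted p 0.00999). Slc2a4 in DFAT was lower with rosiglitazone than with the combination, at 27.1 ± 7.63 against 65.3 ± 5.17 (SD, n = 3). The log2 difference was −1.27 (SE 0.33, limma adjusted p 0.0133), and the difference from 3T3-L1 was 3.31 (SE 0.64, limma adjusted p 0.00109). The DFAT vehicle mean was 3.08, so both treatments lay above it. Col1a1 in DFAT was lower with rosiglitazone than with the combination by 1.16 (SE 0.13, limma adjusted p 1.2e-05), with a difference from 3T3-L1 of 0.96 (SE 0.18, limma adjusted p 0.000736). Its DFAT means were 1039188 with vehicle, 1870060 with the combination and 837947 with rosiglitazone. Pparg was not called in either system, at 0.00 and −0.16, and the difference was 0.16 (SE 0.15, limma adjusted p 0.479).

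**Figure D4:**
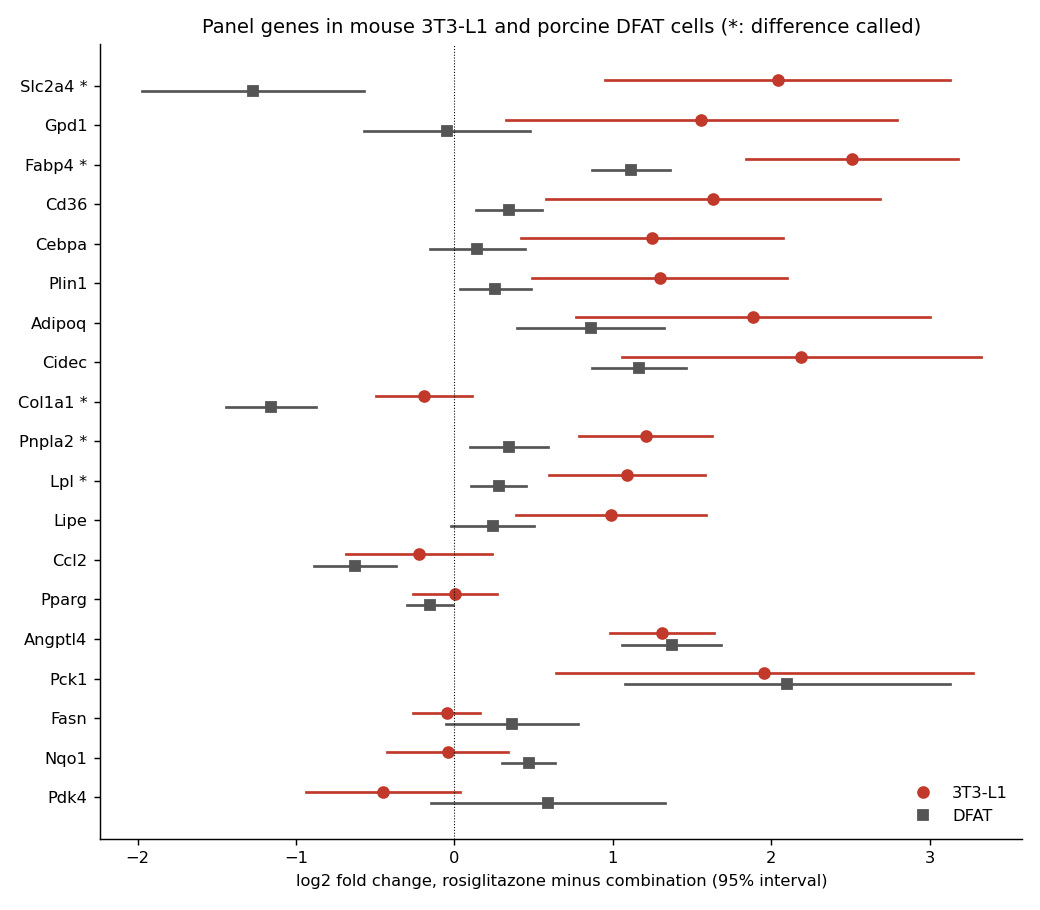
Log2 fold change, rosiglitazone minus combination, of 19 panel genes in 3T3-L1 (circles) and DFAT cells (squares), with 95% intervals from limma; an asterisk marks a called difference between the systems. Slc2a4 lies at 2.04 in 3T3-L1 and −1.27 in DFAT, while the circles and squares of Angptl4 and Pck1 lie together.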

How the data were processed

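Poly(A) RNA was sequenced from 15 libraries of 3T3-L1 and 15 of DFAT cells. The deposited signal values are gene counts that the authors divided by DESeq2 size factors. The submitters' processing notes name bcl2fastq 2.19.1.403, STAR, DESeq2 and the build GRCm38. Most deposited gene starts did not match that build's GENCODE annotation (2.18% did), so coordinates from the table are given as deposited. Values were not whole multiples of 1 read for enough genes (78.7% to 79.8% of low values within 0.02 of a whole number), so no count test was used, and the depths given are estimates.

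Genes averaging 10 or more across the 15 3T3-L1 libraries were fitted as log2(value + 1) over all 5 groups in limma 3.58.1 (R 4.3.3), with a trend in the prior variance, 10 residual degrees of freedom and Benjamini-Hochberg adjustment over all genes. No replicate block was used in this fit. It was also run on simulated data in which the libraries deviated independently. That run does not cover the pairing of libraries described next. Libraries with the same number deviated together in 30 of 30 pairs (correlation 0.106 to 0.461, median 0.300, against a median of −0.142 between different numbers). The data thus pair them, and values with the block are given beside most list counts that they change. They are also given beside named genes whose call they change and beside some others.

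The members and lists (32 lists, 817 symbols) were chosen with earlier results of these data known. Named genes are the 10 largest rises and 10 largest falls among called protein-coding genes with a symbol other than a predicted one, separate groups and an average of 100 or more across the 6 libraries, a panel of 24 genes, and the largest called rise and fall of each list. Other members of lists, and the gene families in the closing section, were named after their values were seen. A few genes that these rules take in are not reported here. Genes were joined to DFAT by symbol. Alternatives varied the block, libraries, pseudocount, filter, prior and normalization. Plots were drawn with matplotlib 3.10.9.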

Additional observations from a re-analysis of the deposited data

Results flagged for a closer look

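For 5 panel genes the effect of rosiglitazone over the combination differed between 3T3-L1 and DFAT cells, by limma's test of the difference itself over 30 libraries. That test had no replicate block. Slc2a4 was higher with rosiglitazone than with the combination by 2.04 in 3T3-L1 and lower by 1.27 in DFAT, a difference of 3.31 (SE 0.64, adjusted p 0.00109). Its DFAT means lay above vehicle with both treatments. Fabp4 rose in both, by 2.51 and 1.12, a difference of 1.39 (SE 0.36, adjusted p 0.00999). Col1a1 differed by −0.19 in 3T3-L1, where it was not called, and was lower by 1.16 in DFAT, a difference of 0.96 (SE 0.18, adjusted p 0.000736). Its DFAT mean lay above vehicle with the combination and below it with rosiglitazone. These 3 differences stayed under an adjusted p of 0.05 whichever library was left out.

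Lpl rose by 1.09 in 3T3-L1 and 0.28 in DFAT, a difference of 0.81 (SE 0.26, limma adjusted p 0.0323). Its call was lost in 7 of the fits that leave out 1 library, among them those without 3T3-L1 rosiglitazone replicate 1 (0.134) or combination replicates 2 and 3 (0.0780 and 0.0867), and without DFAT combination replicates 1 and 3 (0.0606 and 0.0605) or rosiglitazone replicates 1 and 2 (0.0501 and 0.0624). Pnpla2 rose by 1.21 in 3T3-L1 and differed by 0.35 in DFAT (adjusted p 0.0501), a difference of 0.86 (SE 0.25, limma adjusted p 0.0185). That call was lost without 3T3-L1 combination replicate 2 (0.0618), 3T3-L1 rosiglitazone replicate 1 (0.0659) or DFAT rosiglitazone replicate 3 (0.0537).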

How the results depend on the processing

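The count of 2879 genes was 5234 with the replicate block and 1458 in a fit of the 6 libraries alone, 1414 of which were among the 2879. It ranged from 1078 to 4017 when 1 library was left out, with the lowest count without rosiglitazone replicate 1 and the highest without rosiglitazone replicate 2, and from 2335 to 3271 over the other alternatives to the 5-group fit. The count of 1515 differences between the systems ranged from 864 to 2331 when 1 library was left out and from 1419 to 1563 otherwise. The cause was not tested. No named gene called in the main comparison changed direction, while Fasn, Scd1, Nqo1 and Pparg, not called under any alternative run, lay on either side of 0. The replicate block added the calls of Gpd1 and Pdk4 and changed no other call among the 73 named genes in the main comparison. Leaving out combination replicate 2 ended 21 of the named calls, rosiglitazone replicate 1 ended 23 and rosiglitazone replicate 3 ended 17, against 9 for combination replicates 1 and 3 each and 1 for rosiglitazone replicate 2. These fits had no block. Adding the block to the fit without rosiglitazone replicate 1 left 2 named calls ended, Cpt1b and Dlk1, and 2 added, Gpd1 and Pdk4. No other library was left out with the block. The fit without a trend ended 13, and the fits without a filter and of the 6 libraries alone 7 each. The fits without rosiglitazone replicate 1, alone and with the block, and the families under other settings were chosen after seeing the data. With 3 libraries a group, small changes of low genes are beyond the precision of these data.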

Other observations

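Gene families outside the lists were counted after their values had been seen, as a description. Over all genes 9.53% were called higher and 8.78% lower, and with the replicate block 2533 of 15723 were called higher and 2701 lower. Of 78 proteins of the mitochondrial ribosome, which translates the mitochondrial genome, 67 were higher with rosiglitazone than with the combination and 0 lower by limma, with a median of 0.47. The largest rises were Mrpl51 (0.89) and Mrpl20 (0.85). Of 24 genes named for the translocases that import proteins into mitochondria 16 were higher and 0 lower (median 0.45), led by Timm8a1 (0.91) and the channel protein Timm23 (0.73). Proteasome genes had 23 of 37 higher and 0 lower (median 0.30), with Psma1 at 1.10. Of 39 mitochondrial carriers 15 were higher and 2 lower, and the adenine nucleotide carrier Slc25a5 rose by 0.80. The counts of higher genes in these 4 families were 75, 20, 24 and 16 with the block, and 38, 9, 13 and 4 without rosiglitazone replicate 1. Cytosolic ribosomal proteins had 10 of 80 higher and 0 lower (median 0.26), 33 with the replicate block and 0 without rosiglitazone replicate 1. The 10 of 80 lie near the share over all genes. Their many processed copies make single values uncertain.

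Semaphorins and plexins, guidance ligands and their receptors, had 8 of 20 lower and 0 higher (median −0.39; 10 lower and 1 higher with the block; 6 lower without rosiglitazone replicate 1). Besides Plxna4 they included Sema3f (−0.68) and Plxna2 (−0.77). The lysosomal proteases called cathepsins had 4 of 10 lower, Ctsl (−0.70), Ctsa, Ctsb and Ctsd, with 6 lower with the block and 2 without rosiglitazone replicate 1 or without combination replicate 2 or 3. Of 27 ATP-binding cassette transporters 7 were lower and 0 higher (9 and 2 with the block; 3 lower without rosiglitazone replicate 1). Of 16 integrins 3 were lower and 1 higher, Itga7 (1.12), with 7 lower and 1 higher with the block, and none was lower without rosiglitazone replicate 1. For the 16 V-ATPase genes the median was 0.03 and 0 were called by limma, against 3 higher and 1 lower with the replicate block. For 14 histone genes the median was 0.36 with 0 called, against 4 higher with the block.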
